A study of Mus musculus with 2 samples.

Results

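Interferon-high T cells are T lymphocytes of any lineage that carried many transcripts of the interferon-stimulated genes Ifit1, Ifit3 and Rsad2. They were chosen from UMI counts, where a UMI (unique molecular identifier) tags 1 captured RNA molecule. A member held at least 2 UMIs over Cd3d, Cd3e and Cd3g, the CD3 chains of the T-cell receptor complex, and at least 4 UMIs over Ifit1, Ifit3 and Rsad2. It also held at most 1 UMI of the B-cell gene Cd79a and at most 2 of the myeloid gene Lyz2. These limits applied to cells with at least 1000 UMIs, at least 500 genes and a mitochondrial share of at most 10%. The gate left 558 members among 8781 gated T cells and 22284 cells in all. The 6692 gated T cells with 0 UMIs of the 3 interferon genes, called interferon-zero T cells, served for comparison.

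The cells were living leukocytes (CD45+ DAPI-) sorted from B16-F0 tumours, which grow from a transplantable mouse melanoma line. A knockout (KO) and a wild-type (WT) library were made, 1 each, with 10x Genomics 3' chemistry. The labels do not name the deleted gene, the driver of the deletion, the strain or the age, so the genotype labels could not be checked against a targeted gene. The labels call the cells Treg (regulatory T) cells, whereas the sort takes all living leukocytes, and a UMI of the Treg factor Foxp3 was found in 4.58% of KO and 4.24% of WT members and in 0% of KO and 0.116% of WT B cells. The labels do not say whether mice were pooled. With 1 library per genotype no test across animals was possible, and every interval given covers counting error only.

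Type I interferons signal through the receptor chains IFNAR1 and IFNAR2 to the kinases JAK1 and TYK2. These activate a transcription factor complex that contains IRF9 and binds the interferon-stimulated response element (ISRE) in promoters of antiviral genes. Interferon gamma acts instead at the gamma-activated site (GAS), and many guanylate-binding proteins and immunity-related GTPases respond to it. In tumours, T cells with such a programme are a recurrent state, found alongside effector, exhausted and regulatory states.

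The promoters of the gate genes, of Isg15 and of Ifit3b, a relative of Ifit3, follow. They are shown because they carry the element through which this programme is known to be read. Sequences are the 200 bases before the RefSeq gene start on GRCm38.p6, 5' to 3' on the gene's strand, and capitals mark GAAANNGAAA or its reverse complement, the core of the ISRE, searched on both strands. The windows are chr19:34640689-34640888 (plus strand) for Ifit1, chr19:34583329-34583528 (plus) for Ifit3, chr12:26456453-26456652 (minus) for Rsad2, chr4:156200819-156201018 (minus) for Isg15 and chr19:34607757-34607956 (plus) for Ifit3b.
Ifit1: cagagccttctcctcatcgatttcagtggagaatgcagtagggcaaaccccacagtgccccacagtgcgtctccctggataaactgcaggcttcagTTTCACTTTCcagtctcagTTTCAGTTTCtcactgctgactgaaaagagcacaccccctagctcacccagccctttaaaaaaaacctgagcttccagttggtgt
Ifit3: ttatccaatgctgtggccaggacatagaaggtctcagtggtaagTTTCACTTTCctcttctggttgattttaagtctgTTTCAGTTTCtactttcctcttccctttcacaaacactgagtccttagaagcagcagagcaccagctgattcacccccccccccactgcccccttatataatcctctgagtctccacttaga
Rsad2: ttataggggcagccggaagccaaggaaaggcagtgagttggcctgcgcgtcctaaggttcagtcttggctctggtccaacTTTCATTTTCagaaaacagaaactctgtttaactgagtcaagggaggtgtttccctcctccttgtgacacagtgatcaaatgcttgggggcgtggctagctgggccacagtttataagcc
Isg15: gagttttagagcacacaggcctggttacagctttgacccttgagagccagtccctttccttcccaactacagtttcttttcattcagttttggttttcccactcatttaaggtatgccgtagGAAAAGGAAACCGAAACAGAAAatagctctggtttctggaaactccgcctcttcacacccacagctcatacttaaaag
Ifit3b: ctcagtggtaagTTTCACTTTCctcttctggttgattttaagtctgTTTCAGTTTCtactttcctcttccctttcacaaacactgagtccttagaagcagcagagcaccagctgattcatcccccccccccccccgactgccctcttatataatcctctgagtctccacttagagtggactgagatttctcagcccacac

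Matches began 104 and 85 bases before the start of Ifit1, 156 and 122 before Ifit3, and 120 before Rsad2. Isg15 held 3 overlapping matches, 78, 72 and 66 bases before its start. Ifit3b is a close copy of Ifit3. Their transcripts were identical at 98.0% of 1697 aligned bases, so UMIs of the 2 genes may be split between them and the level of each is uncertain. No match was found in the windows of Ifit2, Cmpk2, Irf7, Oasl1 and Ifi44, and Usp18 had no window. In windows from 250 bases before to 50 after the start, which the search covered, the core occurred in 3.99% of 27025 promoters of all genes. Of the genes measured in both libraries, 9120 had a window and 3.91% held the core. Among the 407 genes called higher in interferon-high than in interferon-zero T cells of both libraries, without the gate genes, 320 had a window and 24.1% held the core. The share was 4.93% of 142 windows of genes called lower in both. Among genes called between KO and WT members, the core was in 5.26% of 380 windows of those higher and 5.44% of 147 of those lower. The genes called higher in interferon-high cells came from groups that the gate itself made. Genes that travel with the gate genes were thereby favoured, so the 24.1% is a description. A match describes the letters only and is not a binding site.

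Members and interferon-zero cells had passed the same CD3 gate, and their T-cell marker sums are given as a description. The 8 T-cell markers summed to 5168 CPM (the UMIs of a gene divided by all UMIs of the cells compared, scaled to 1e6) in KO members, against 5278 in KO interferon-zero T cells. The sums were 5117 CPM in WT members and 5131 in WT interferon-zero T cells. Members held a median of 6347 UMIs per cell in KO and 6692 in WT, interferon-zero T cells 5699 and 5873. The median mitochondrial share was 2.97% in KO and 2.96% in WT members, against 3.10% and 3.31% in interferon-zero cells. The matrices held 112544655 KO and 98438084 WT UMIs, and the libraries shared 42 barcodes, of which 2 belonged to KO members and 0 to WT members.

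Interferon-high cells made up a larger share of the T cells in the KO library. They were 393 of 5323 gated T cells in KO, 7.38% (exact 95% interval 6.69 to 8.12), against 165 of 3458 in WT, 4.77% (4.09 to 5.54). The ratio was 1.55-fold (1.29 to 1.87), which is 0.63 on the log2 scale. Because T cells were 47.8% of KO and 31.0% of WT cells, members formed 3.53% of all KO and 1.48% of all WT cells. Cells between the gates, with 1 to 3 UMIs of the 3 genes, were 18.9% of KO and 15.2% of WT T cells. In an alternative, cells of at least 2000 UMIs were reduced to 2000 and gated again, with 2 gate UMIs asked for. Then 6.32% of 4954 KO and 3.92% of 3317 WT T cells passed. With this alternative included, the KO share was the larger under all 12 other ways of choosing the cells, with log2 ratios from 0.44 to 0.98. This difference has no replicate check, since genotype and library cannot be told apart.

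The same direction was found in each lineage, with wide intervals where cells were few. Lineage was read from UMIs of Cd4, of Cd8a or Cd8b1, which encode the CD8 chains, and of Trdc, the constant region of the delta T-cell receptor chain. Among cells with CD8 UMIs only, 7.59% of 2279 KO and 5.15% of 1572 WT cells were interferon-high. Among cells with Cd4 only, the shares were 7.84% of 1199 KO and 4.55% of 660 WT cells. For Trdc only, 18 of 356 KO and 5 of 188 WT cells were members, and the interval of that log2 ratio, -0.56 to 2.71, included 0. Among T cells with a Foxp3 UMI, 18 of 202 KO and 7 of 198 WT cells were members, 8.91% and 3.54%. Cells with UMIs of more than 1 lineage had the highest shares, 12.3% in KO and 11.6% in WT. The interval of their log2 ratio, -0.73 to 0.96, included 0. These cells were deep, with medians of 11239 UMIs in KO members and 10902 in KO interferon-zero cells, and 12521 and 11745 in WT. The gate is a raw count, and the part of depth in these shares was not tested.

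Outside the T-cell gate the same 3 genes also reached 4 UMIs. Among cells with 0 CD3 UMIs, those with at least 3 Lyz2 UMIs passed in 20.3% of 1585 KO and 14.0% of 1050 WT cells, at median depths of 9087 and 10496 UMIs. Those with Ncr1, a natural killer receptor, passed in 1.54% of KO and 1.05% of WT cells. Of the B cells, taken as cells with at least 2 Cd79a UMIs and an Ms4a1 UMI, 0 of 313 passed in KO, which allows a share of up to 0.958% by the floor of 3 counts and 1.17% by the exact 95% interval, and 2 of 2587 passed in WT, 0.0773%.

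**Figure D1:**
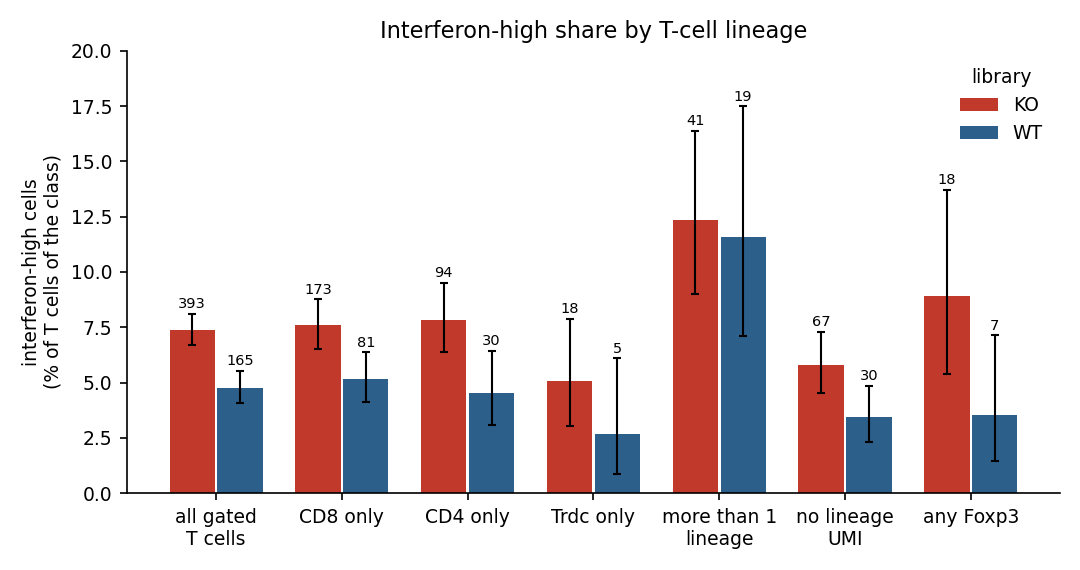
Bars give the share of T cells of each class that was interferon-high (percent, vertical axis), KO left of WT, with exact 95% intervals of counting error and the number of interferon-high cells above each bar. Among CD8 cells the KO bar stands at 7.59% and the WT bar at 5.15%, and the tallest bars, 12.3% and 11.6%, belong to cells with UMIs of more than 1 lineage.

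The members were a mixture of lineages led by CD8 cells, as interferon-zero T cells were. CD8 UMIs only were found in 44.0% of KO members and 42.4% of KO interferon-zero cells, and in 49.1% of WT members and 43.6% of WT interferon-zero cells. The log2 ratios, 0.06 in KO (-0.18 to 0.28) and 0.17 in WT (-0.17 to 0.50), had intervals that included 0. Cd4 only was found in 23.9% against 22.4% in KO, and in 18.2% against 19.5% in WT. Trdc only was found in 4.58% of KO members against 7.01% of interferon-zero cells, and in 3.03% against 5.53% in WT. More than 1 lineage was found in 10.4% of members against 5.53% in KO and in 11.5% against 4.15% in WT. A share without any lineage UMI remained, 17.0% of KO and 18.2% of WT members, against 22.7% and 27.2% of interferon-zero cells.

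Depth entered these shares. After reduction to 2000 UMIs, CD8 only stood at 37.7% of KO members against 36.6% of interferon-zero cells, and at 45.1% against 36.6% in WT. Mixed lineage then stood at 2.54% against 1.37% in KO and 2.44% against 0.619% in WT. The reduction left out 0 KO and 1 WT members and 68 KO and 22 WT interferon-zero cells. B cells, which should lack these genes, held a CD8 UMI in 1.60% of KO and 2.09% of WT cells at median depths of 3538 and 3409 UMIs. They held a Cd4 UMI in 0.319% and 0.580%, and a Trdc UMI in 0.958% and 0.657%, of KO and WT cells.

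The gate was met by cells of very different interferon load. Members held a median of 6 gate UMIs in KO, with a highest of 156, and a median of 7 in WT, with a highest of 44. All 3 gate genes were present in 46.3% of KO and 52.1% of WT members. At least 20 gate UMIs were held by 31 KO and 15 WT cells. The KO cell with 156 gate UMIs also held 37 Isg15 UMIs and 31 CD3 UMIs among 16015. The numbers near the threshold were large, with 86 KO and 41 WT cells at 4 gate UMIs and 144 and 71 just outside it at 3.

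Isg15, a ubiquitin-like protein that is conjugated to target proteins after interferon exposure, was not part of the gate and followed the gate count. In KO T cells it was at 26.3 CPM with 0 gate UMIs, 199 with 3, 353 with 4, 326 with 5 and 1317 with 20 or more. In WT T cells it was at 28.3, 205, 247, 588 and 1336 CPM in the same classes. At least 1 Isg15 UMI was found in 84.7% of KO members against 15.1% of interferon-zero cells, and in 89.1% against 14.4% in WT. After reduction to 2000 UMIs these shares were 62.6% against 5.01% in KO and 58.5% against 4.70% in WT. B cells held an Isg15 UMI in 3.19% of KO and 3.02% of WT cells. Members are a class taken from a count per cell, that is, a range of interferon load across lineages.

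**Figure D2:**
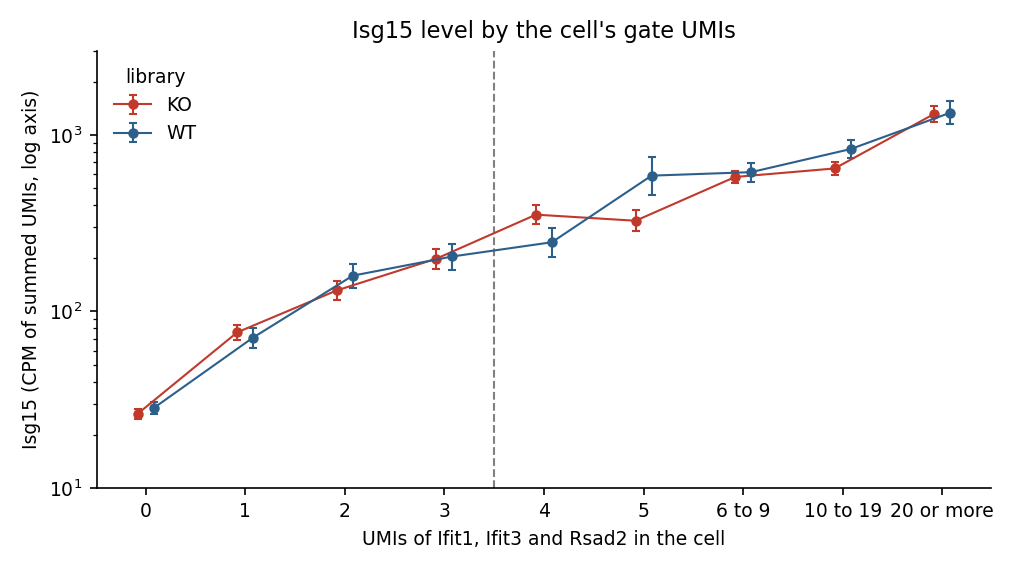
Points give the Isg15 level (CPM, log axis) by the number of Ifit1, Ifit3 and Rsad2 UMIs in the T cell, for KO and WT, with exact 95% intervals of counting error, and the dashed line marks the gate. Levels go up from 26.3 CPM in KO and 28.3 in WT at 0 gate UMIs to 1317 and 1336 at 20 or more. Across the gate the KO points stand at 199 CPM with 3 gate UMIs, 353 with 4 and 326 with 5.

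Genes of most arms of the interferon response were higher in members than in interferon-zero cells, in both libraries. The comparison with interferon-zero T cells is a description, because the gate used the same cells and genes travel with the gate. A gene was called when it differed by at least 1.5-fold with an interval excluding no change and had at least 20 UMIs over both groups. In KO 14.2% of 12548 measured genes were called, 1029 higher (8.20%) and 756 lower (6.02%). In WT 9.31% of 11852 were called, 603 higher (5.09%) and 500 lower (4.22%). Averaging CPM over cells, in place of summing UMIs, turned the split to 1298 higher and 1687 lower in KO and 1357 and 1958 in WT. Leaving out the top cell of each gene gave 767 higher and 1095 lower in KO and 373 and 914 in WT, and a gate per 10000 UMIs gave 1003 and 1471 in KO and 483 and 886 in WT. Both libraries called 410 genes higher, 39.8% of those in KO and 68.0% of those in WT. Both called 194 genes lower, 25.7% of those in KO and 38.8% of those in WT, and 13 genes were called in opposite directions. The median log2 ratio of all measured genes was -0.02 in KO and -0.04 in WT.

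Among effectors that act on RNA or on viral proteins, nearly all list members were called higher. The 3 measured IFIT genes outside the gate, whose proteins bind foreign RNA, were all higher in both libraries. Ifit3b stood at 90.1 CPM in KO members against 1.88 in interferon-zero cells, and at 88.7 against 1.34 in WT. Ifit2 stood at 99.2 against 10.2 CPM in KO and 97.5 against 11.5 in WT. Of the oligoadenylate synthetase genes all 5 measured were higher in each library. Oas3, which makes signalling oligoadenylates upon binding double-stranded RNA, was at 100 against 12.5 CPM in KO and 88.7 against 11.5 in WT. Other antiviral effectors were higher for 40 of 42 in KO and 39 of 41 in WT, with list medians of 2.00 and 1.92.

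Cmpk2, a mitochondrial nucleotide kinase beside Rsad2 on chromosome 12, was at 50.5 against 3.27 CPM in KO and 65.5 against 3.07 in WT. Bst2, the tether that holds budding virions, was at 544 against 150 CPM in KO and 515 against 135 in WT. Samhd1, which depletes nucleotides, was at 584 against 184 CPM in KO and 606 against 211 in WT. Ifi27l2a, a small interferon-induced membrane protein, was at 2691 against 811 CPM in KO and 2292 against 768 in WT. All 11 measured PYHIN genes, a family that includes DNA sensors, were higher in KO and 10 of 11 in WT. Ifi204, a member of that family, was at 70.0 against 5.09 CPM in KO and 38.2 against 4.14 in WT. Slfn5, a Schlafen family gene, was at 282 against 23.4 CPM in KO and 276 against 27.7 in WT.

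The ISG15 conjugation system was higher as a whole. All 5 list members were called in both libraries, with medians of 2.35 in KO and 2.85 in WT. Isg15 stood at 555 against 26.3 CPM in KO and 615 against 28.3 in WT, log2 ratios of 4.40 and 4.44. Uba7, the activating enzyme of ISG15, was at 47.5 against 19.7 CPM in KO and 38.2 against 19.1 in WT. Herc6, the main mouse ligase for it, was at 123 against 24.1 CPM in KO and 147 against 22.9 in WT. Usp18, which removes ISG15 and also dampens signalling at IFNAR2, was at 130 against 7.18 CPM in KO and 114 against 7.22 in WT. It was found in 53.4% of KO members and 52.7% of WT members.

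Upstream, 2 of 5 receptors were called higher in KO and 1 of 5 in WT. Of 6 JAK-STAT signalling genes 4 were higher in each library. Of 7 interferon regulatory factors, a list without Irf9, 4 were higher in KO and 2 in WT, with medians of 0.65 and 0.26. Irf7 had the largest ratio of that list in each library. Of 20 interferon ligand genes only Ifng reached 20 UMIs, at 171 against 166 CPM in KO and 94.8 against 102 in WT, and it was not called. Ifnar1 had log2 ratios of 0.50 in KO and 0.28 in WT, and Jak1 0.03 and -0.17, none of them called. Ifnar2 was higher in KO (0.75) and not called in WT (0.26). Ifngr2, a chain of the interferon gamma receptor picked after its values were seen, was higher in both, at 13.4 against 3.99 CPM in KO and 15.7 against 8.56 in WT, log2 ratios of 1.75 and 0.87. Irf9 was higher by 1.16 on the log2 scale in each library. Irf7, which amplifies interferon production, was at 204 against 30.9 CPM in KO and 183 against 32.2 in WT. Socs1, which inhibits JAK kinases, was higher by 0.97 in KO and 1.15 in WT. It belongs to a list of 7 negative regulators, of which 2 were higher in each library, with medians of 0.39 and 0.24.

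Among nucleic-acid sensors, 5 of 10 in KO and 5 of 9 in WT were higher. Ddx58, which encodes RIG-I, was at 132 against 33.4 CPM in KO and 138 against 34.5 in WT. Zbp1, a sensor of Z-form nucleic acid, was at 401 against 83.5 CPM in KO and 369 against 72.9 in WT. Aim2, a sensor of cytosolic DNA, had log2 ratios of -0.02 and 0.21 and was not called.

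Families known to respond to interferon gamma were also higher. All 10 guanylate-binding proteins were called in KO and 9 of 10 in WT, with medians of 1.87 and 1.67. Gbp2 was at 159 against 39.4 CPM in KO and 157 against 37.7 in WT. All 8 immunity-related GTPases were called in both, with medians of 1.87 and 1.82, and Igtp stood at 275 against 75.5 CPM in KO and 236 against 61.8 in WT. Of 20 genes of class I antigen presentation, 8 were higher in KO and 7 in WT, with medians of 0.43 and 0.48. B2m, the light chain of class I molecules, had log2 ratios of 0.41 and 0.33 and was not called. The GAS core TTCNNNGAA occurred in 12.2% of the 320 windows of genes higher in both libraries and in 9.55% of all promoters. In the 9120 windows of genes measured in both libraries the share was 8.25%. The genes of the 320 windows were chosen through the gate, so their share is a description. Cxcl10, a chemokine that attracts T cells through CXCR3, was at 324 against 21.0 CPM in KO and 151 against 13.5 in WT. A single cell held 9.90% of its UMIs in KO members and 20.8% in WT members.

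**Figure D3:**
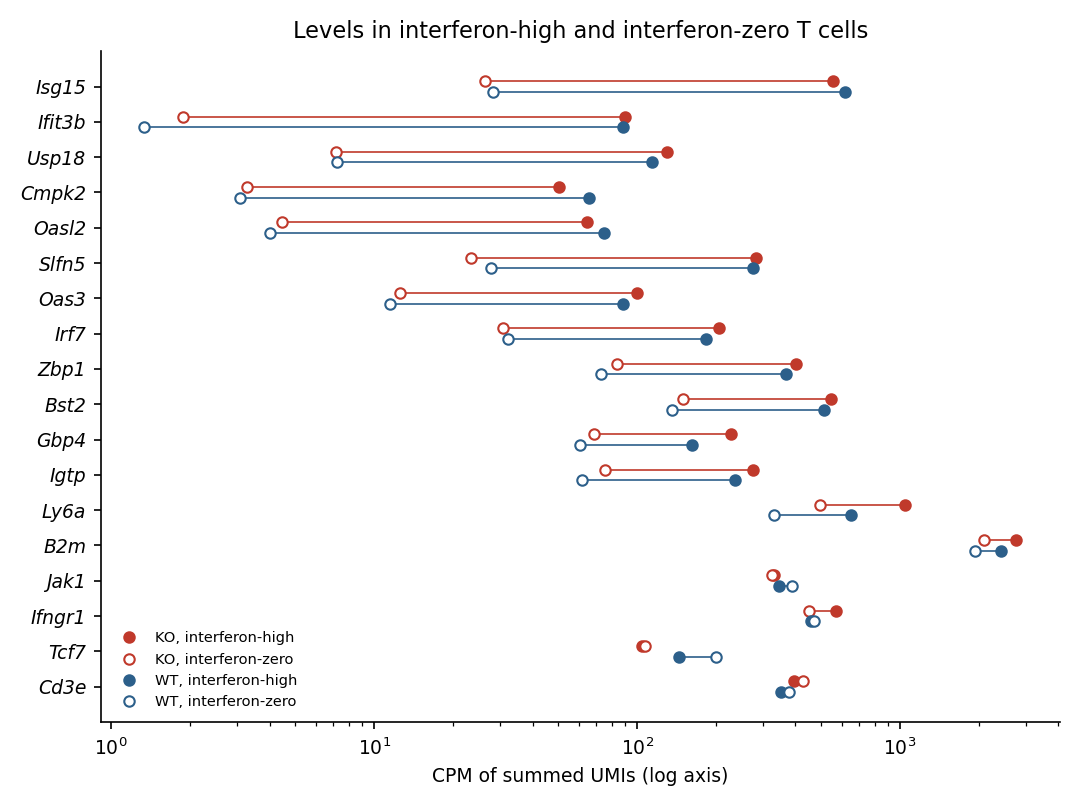
Points give the level of each gene (CPM, log axis) in interferon-high T cells (filled) and interferon-zero T cells (open) of the KO and WT libraries, joined by a line for each library. Isg15 lies at 555 CPM in KO and 615 in WT members and at 26.3 and 28.3 in interferon-zero cells, while Jak1 and the T-cell gene Cd3e have short lines.

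T-cell state genes differed between members and interferon-zero cells in both directions. Cd69, an early activation receptor that also holds cells in tissue, was higher in members, at 348 against 185 CPM in KO and 377 against 243 in WT. Of 16 genes of the early T-cell receptor response, Cd69 included, 6 were higher and 1 lower in KO, and 1 and 2 in WT. Ly6a, the surface protein Sca-1, was at 1042 against 497 CPM in KO and 649 against 331 in WT. Cd274, which encodes the checkpoint ligand PD-L1 and was picked after its values were seen, was at 88.1 against 24.1 CPM in KO and 82.5 against 21.8 in WT. It had the largest ratio of 15 inhibitory and exhaustion genes in each library. Of these 15, 2 were higher and 5 lower in KO, median -0.18, and 2 and 1 in WT, median -0.27. Ccl3, a chemokine of activated effector cells, was lower, at 84.6 against 247 CPM in KO and 47.7 against 151 in WT. Gzmf, a granzyme, had 16 UMIs in KO members, 93.8% of them in 1 cell, and 0 in WT members. It was at 4.67 against 84.1 CPM in KO, and in WT interferon-zero cells it was at 22.5 CPM. Of 19 cytotoxic genes, 2 were higher and 6 lower in KO, and 1 and 4 in WT. Foxp3 was lower in WT members (log2 -0.87) and not called in KO (0.43).

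Proliferation genes were lower in members by the summed counts, and this rested on the largest cells. Of 20 genes, 14 were lower in KO and 16 in WT, with medians of -0.71 and -1.02. Top2a, a topoisomerase of dividing cells, was at 158 against 252 CPM in KO and 70.3 against 167 in WT. In cells of more than 10000 UMIs the list summed to 4034 against 5894 CPM in KO and 2387 against 5058 in WT. In cells of 4000 to 10000 UMIs it summed to 1128 against 1090 CPM in KO and 1071 against 1031 in WT, and the list medians became 0.22 and 0.0032. A UMI of Mki67, a marker of cycling cells, was found in 17.8% of KO members against 19.5% of interferon-zero cells, and in 20.6% against 14.0% in WT. After reduction to 2000 UMIs these shares were 7.12% against 8.66% in KO and 7.32% against 7.17% in WT.

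**Figure D4:**
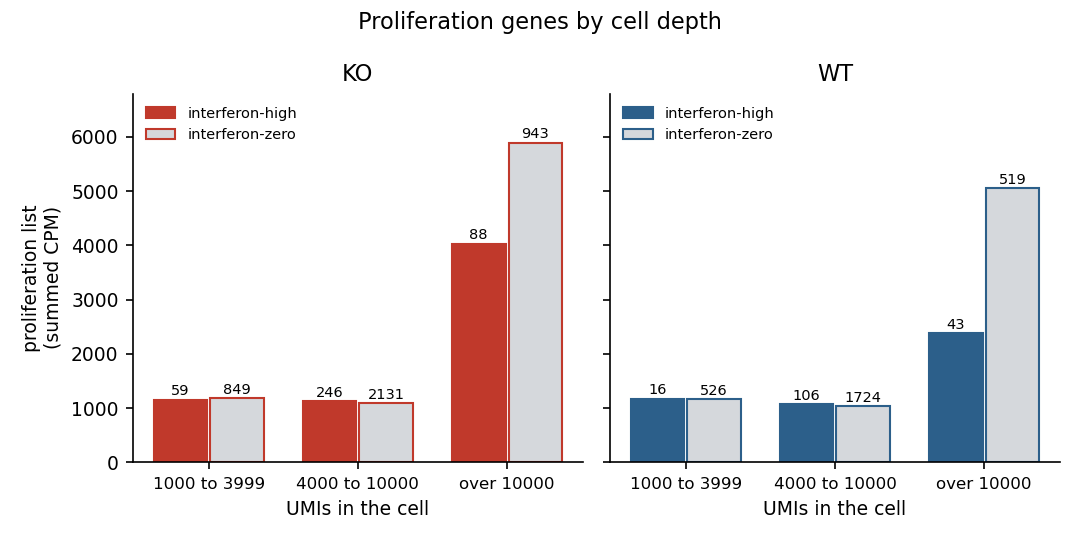
Bars give the summed level of the proliferation list (CPM) in interferon-high and interferon-zero T cells by UMIs per cell, for KO and WT, with the number of cells above each bar and no error bars. The groups stand apart above 10000 UMIs, at 4034 and 5894 CPM in KO and 2387 and 5058 in WT, and near each other between 4000 and 10000 UMIs.

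RNA of other cell types was present in members. The 5 macrophage and monocyte markers summed to 82.3 CPM in KO members against 37.9 in interferon-zero cells, and to 35.5 against 40.4 in WT. A single KO member held 25.2% of these UMIs in KO members. Any of the 5 was present in 29.5% of KO members against 26.2% of interferon-zero cells, and in 22.4% against 25.1% in WT. A longer list of 17 macrophage and monocyte genes, which includes the interferon-induced Cxcl10, summed to 2519 against 1245 CPM in KO, with 15 higher and 1 lower. It summed to 2292 against 1363 CPM in WT, with 8 higher and 0 lower. The 4 dendritic cell markers summed to 89.3 against 20.7 CPM in KO and 55.9 against 36.7 in WT. They were present in 8.65% of KO members against 3.39% of interferon-zero cells, and in 4.85% against 4.26% in WT. The 4 B-cell markers summed to 10.2 against 5.12 CPM in KO and 22.5 against 13.9 in WT, with Ms4a1 at 0 in KO members. The 3 neutrophil markers summed to 2.04 against 1.26 CPM in KO and 6.14 against 56.1 in WT. The 3 natural killer (NK) markers summed to 99.2 against 109 CPM in KO and 143 against 112 in WT. Any NK marker was present in 26.0% of KO members against 30.4% of interferon-zero cells, and in 37.6% against 29.8% in WT. At least 3 NK-marker UMIs were held by 8.91% against 11.9% in KO and 17.0% against 10.8% in WT. The 4 melanoma markers summed to 1.75 and 2.05 CPM in KO and WT members, with Tyrp1 at 0 in both and Mlana at 0 in WT. The part of this RNA in the comparisons was not tested. A selection chosen after the data were seen kept cells with no UMI of the 16 B-cell, macrophage and monocyte, dendritic cell and neutrophil markers. Among these, members were 6.77% of KO and 4.88% of WT T cells.

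The direct comparison of KO with WT members contrasts genotypes and not gate classes. Both groups had still passed the same gate of at least 4 UMIs. Genes that follow the gate count, as Isg15 does, are thereby held toward like levels in the 2 groups. Of 9378 measured genes 7.37% were called, 491 higher (5.24%) and 200 lower (2.13%). Scaling by median ratio in place of totals gave 399 higher and 266 lower. The median log2 ratio of all measured genes was 0.08. Among interferon-zero T cells 9.78% of 13155 genes were called, 633 higher (4.81%) and 653 lower (4.96%). The 2 comparisons use the same pair of libraries, so a ratio of like size in both is not particular to the members.

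In most interferon lists few genes were called between KO and WT members. Because the same interferon gate chose both groups, few calls in these lists do not show that the genotypes are alike. Isg15 was at 555 CPM in KO and 615 in WT, a log2 ratio of -0.15 (-0.26 to -0.03), and was not called. The gate genes, whose levels the gate itself set, had log2 ratios of 0.09 for Ifit1, -0.07 for Ifit3 and -0.19 for Rsad2, given as a description. Of 5 genes of ISG15 conjugation 0 were called, of 3 IFIT genes outside the gate 0, and of 5 receptors 0. Of 41 other antiviral effectors 4 were higher, of 10 guanylate-binding proteins 1, and of 20 class I presentation genes 0. Of 11 PYHIN genes 4 were higher and 1 lower, and of the 5 oligoadenylate synthetase genes Oas1a and Oasl1 were higher. Ifi44, an antiviral gene picked after its values were seen, was at 29.8 CPM in KO and 12.3 in WT members, and its log2 ratio of 1.28 stood beside 1.61 in interferon-zero cells.

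A few interferon genes were called higher in KO members. Cxcl10 was at 324 CPM in KO and 151 in WT members, log2 1.10 (0.89 to 1.32), beside 0.64 in interferon-zero cells. Its ratio was -0.09 among CD8 cells alone. Ifi204 was at 70.0 against 38.2 CPM, log2 0.87 beside 0.30, and was at 0.15 and not called among cells without a UMI of Ccr7 or Lef1, a selection chosen after the data were seen. Oas1a was at 35.9 against 23.2 CPM, log2 0.63 beside 0.24, and was at -0.11 among CD8 cells alone. Ly6a was at 1042 against 649 CPM, log2 0.68 beside 0.59. Iigp1 was at 184 against 114 CPM, log2 0.69 beside 0.60, and at -0.04 with a gate on 5 other interferon genes. In the opposite direction Ifi208, a PYHIN gene, was at 94.8 CPM in KO and 209 in WT members, log2 -1.14 (-1.37 to -0.91), beside -1.03.

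**Figure D5:**
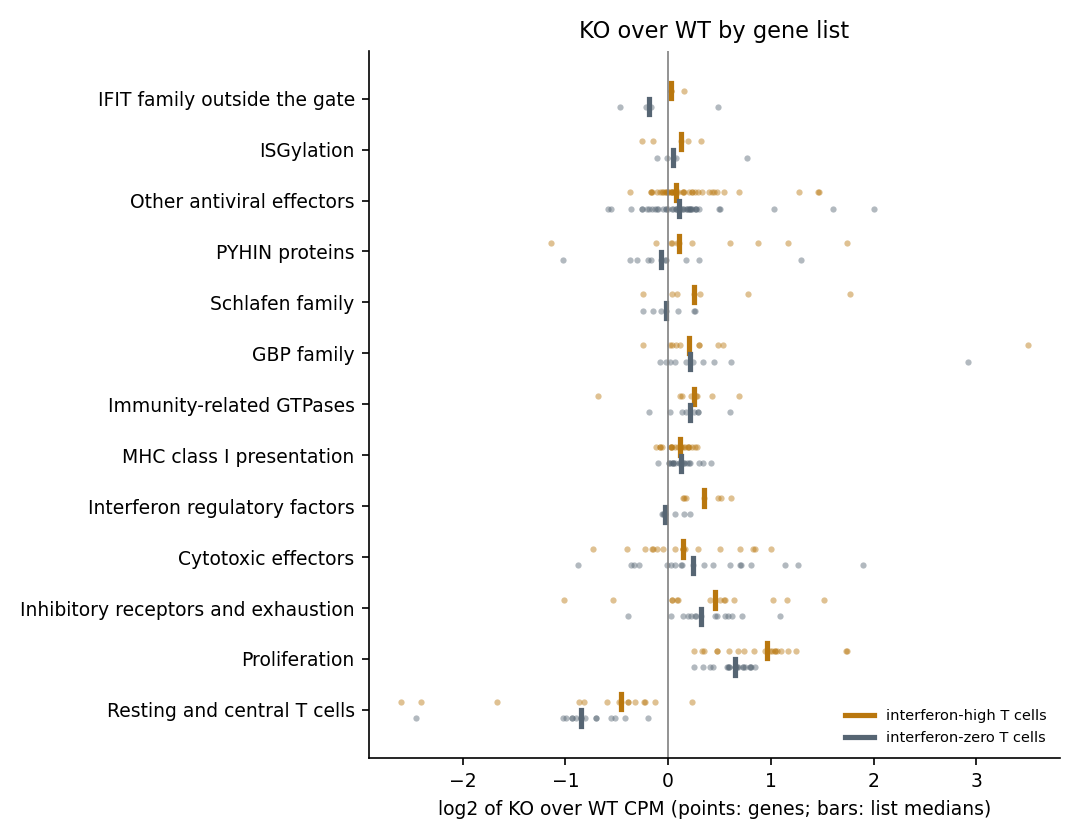
Points give log2 of KO over WT CPM for the genes of each list and bars the list medians, in interferon-high and in interferon-zero T cells. In members the ISG15 conjugation median lies at 0.13, proliferation at 0.97 and resting and central T-cell genes at -0.46, and in interferon-zero cells at 0.04, 0.65 and -0.85.

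Genes of resting and central T cells were lower in KO, and proliferation genes higher, in members as in interferon-zero cells. Of 15 resting genes 6 were lower and 0 higher in members, median -0.46, and 11 were lower in interferon-zero cells, median -0.85. Dapl1 was at 18.7 CPM in KO and 98.9 in WT members, log2 -2.41 (-2.85 to -1.97), beside -0.94. Id3, a regulator that restrains effector differentiation, was at 7.29 against 23.2 CPM, log2 -1.67 beside -1.03. Tcf7, the factor TCF-1 of stem-like and naive T cells, was not called in members (-0.47) and was lower in interferon-zero cells (-0.90). Of 20 proliferation genes 14 were higher in members, median 0.97, and 14 in interferon-zero cells, median 0.65. Among members without a UMI of the 16 other-lineage markers, 2 proliferation genes were higher and 1 lower, median 0.05, and in the 4000 to 10000 UMI window 4 were higher and 1 lower, median 0.54. The list summed to 4034 CPM in KO and 2387 in WT members of over 10000 UMIs, and to 1128 in KO and 1071 in WT members of 4000 to 10000. Among members without a Ccr7 or Lef1 UMI, a choice that removes resting cells, 3 resting genes were lower, median -0.26. Stmn1, a microtubule regulator, was at 196 against 94.1 CPM in members, log2 1.06. Ube2c, a ubiquitin enzyme of mitosis, was at 95.1 against 28.6 CPM, log2 1.73 beside 0.73. Aurkb, a mitotic kinase, was at 22.8 against 4.09 CPM, log2 2.47 beside 0.80.

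Some checkpoint and costimulatory receptors were higher in KO members. Pdcd1, which encodes PD-1, was at 84.0 CPM in KO and 53.9 in WT members, log2 0.64 beside 1.09 in interferon-zero cells. Havcr2, which encodes TIM-3 and was picked after its values were seen, was at 19.5 against 6.82 CPM, log2 1.52 beside 0.62. Tnfrsf4, which encodes the costimulatory receptor OX40, was at 210 against 92.8 CPM, log2 1.18 beside 0.78. The log2 ratio of Tnfrsf4 in members ran from 0.06 to 1.60 under 17 other ways of choosing the cells or of counting. Of the 14 measured inhibitory and exhaustion genes 4 were higher and 1 lower. Foxp3 had 22 UMIs in KO and 16 in WT members and was not called, with a log2 ratio of -0.77 (-1.76 to 0.26), beside -2.07, called lower, in interferon-zero cells.

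Ranked by the interval bound nearest to 0, the leading named genes higher in KO members were partly carried by single cells. Gbp2b was at 38.8 CPM in KO and 3.41 in WT members, log2 3.51 (2.25 to 5.15), beside 2.92 in interferon-zero cells. It was found in 21.4% of KO members and in 1 WT member, which held all 5 WT UMIs, and reads could be shared with its close relatives. Tpm3-rs7, a copy of the tropomyosin gene Tpm3 whose level is uncertain for that reason, was at 24.2 against 2.73 CPM, log2 3.15 beside 1.95. Hspa1a, an inducible heat-shock chaperone, was at 35.9 against 2.73 CPM, log2 3.72 beside 0.38, with 28.5% of the KO UMIs in 1 cell. WT members held 4 Hspa1a UMIs, and interferon-zero cells stood at 28.4 CPM in KO and 21.8 in WT. Members over interferon-zero cells gave 0.34 in KO, not called, and -3.00 in WT, called lower. The near-identical neighbour Hspa1b was at 25.4 against 4.77 CPM, log2 2.41 beside 0.23, and the split of reads between the 2 is uncertain. WT members held 7 Hspa1b UMIs, and interferon-zero cells stood at 16.8 CPM in KO and 14.3 in WT. Of the 12 genes of RNA quality and stress 2 were higher in members. Cdkn1a, the cell-cycle inhibitor p21, was at 111 against 30.7 CPM, log2 1.86 beside 0.67. Ramp3, a receptor-associated protein, was at 49.3 against 14.3 CPM, log2 1.78 beside 0.32, and at -0.20 with a gate on 5 other interferon genes.

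For 3 leading genes 1 cell held most UMIs. Mt2, a metallothionein, was at 21.9 CPM in KO and 2.05 in WT members, with 70.7% of the KO UMIs in 1 cell that also held 19 macrophage-marker UMIs. WT members held 3 Mt2 UMIs, and interferon-zero cells stood at 18.5 CPM in KO and 11.9 in WT. Cxcl2, a chemokine that attracts neutrophils, was at 87.2 against 19.8 CPM, with 67.2% in 1 cell. Arg1, an arginase of myeloid cells, was at 24.5 against 5.46 CPM, with 86.9% in the same cell as Cxcl2.

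Among the genes lower in KO members, several had a like ratio outside them. Ctse, the protease cathepsin E, was at 14.9 CPM in KO and 51.2 in WT members, log2 -1.78 (-2.32 to -1.25), beside -1.71. Treml2, a surface receptor of the TREM family, was at 13.4 against 43.0 CPM, log2 -1.68 beside -0.94. Klra1, one of the similar Ly49 receptor genes and therefore uncertain, was at 9.63 against 36.1 CPM, log2 -1.91 beside -0.87. Nsg2 was at 15.5 against 37.5 CPM, log2 -1.28 beside -0.94. Actn1, an actin cross-linker, was at 27.1 against 56.6 CPM, log2 -1.06, and was not called in interferon-zero cells (-0.42). Bcl2a1a, Tubb2a, Cacnb3 and Marcksl1 were also called lower, and in WT members 1 cell held 60.9%, 62.2%, 53.3% and 38.2% of their UMIs.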

How the data were processed

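The authors deposited whole-number UMI counts per gene and cell barcode, without normalization, in 1 matrix per library. Cell Ranger 5.0.0 is named per the file headers, and STAR and mm10 per the submitters' processing notes. For the annotation release, the sources used here give no name. GENCODE coordinates on GRCm38 placed 32235 of 32285 features by identifier. Promoters came from RefSeq.

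UMIs were summed over the cells of each group and library and divided by the group's total to give CPM. Ratios are log2 CPM ratios with exact conditional binomial 95% intervals, and shares carry exact Clopper-Pearson 95% intervals. UMIs mark molecules, but intervals and the floor of 3 UMIs for a count of 0 cover counting error only. A gene was called at 1.5-fold or more with an interval excluding no change and at least 20 UMIs over both groups. Since each genotype has 1 library, a call is no test and carries no p-value. A list is described by its calls and by the median log2 ratio of its measured members.

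Genes were named with at least 50 UMIs over both groups and 20 CPM in the higher group, ranked by the interval bound nearest to 0, with 12 each way for KO over WT, 15 higher and 12 lower for members over interferon-zero cells, and up to 4 of each of 33 lists, of which 369 of 378 genes were matched. Mitochondrial, ribosomal, haemoglobin, immunoglobulin, receptor-segment, clone-named and sex-linked genes were left out. The members and lists were chosen with earlier results of these data known.

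Scrublet in scanpy 1.11.5 called 0 KO and 355 WT cells (3.18%). The caller had not worked in KO, so no doublets were removed. Removing the expected 9.12% of KO and 9.15% of WT cells by highest score, an alternative, took out 12.7% of KO and 7.88% of WT members (50 and 13 cells), against 5.71% of KO and 3.47% of WT interferon-zero cells. Ratios were computed with numpy 2.4.6, scipy 1.17.1 and pandas 2.3.3 in Python 3.11.15, figures with matplotlib 3.10.9, and the code was tested on simulated data. Some genes are not reported here.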

Additional observations from a re-analysis of the deposited data

Results flagged for a closer look

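Cxcl2 was called higher in KO members (log2 ratio 2.14) and lower in KO interferon-zero T cells (-1.89), so the genotypes stood in opposite order in the 2 groups. With 1 library per genotype this difference was not tested. Cxcl2 was at 87.2 CPM in KO and 19.8 in WT members, and at 9.33 CPM in KO and 34.6 in WT interferon-zero cells. A single KO member of 17450 UMIs held 201 of the 299 Cxcl2 UMIs and 73 of the 84 Arg1 UMIs of KO members, beside 23 CD3 UMIs and 3 macrophage-marker UMIs. A UMI of Cxcl2 was found in 5.09% of KO and 12.1% of WT members.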

How the results depend on the processing

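No paired analysis was possible because each genotype has 1 library, and no library could be left out. Of 104 values of the shares and call counts under alternatives, 91 stayed within their limits, and 13 moved. A gate on 5 other interferon genes gave a log2 KO over WT share of 0.98, a CD8 ratio of members over interferon-zero cells of -0.19 in KO, and 1096 calls for KO over WT in members. Cells of 4000 to 10000 UMIs gave a CD8 ratio of 0.31 in KO, and 805 calls for members over interferon-zero cells in KO, 714 in WT, 404 for KO over WT in members and 641 in interferon-zero cells. Cells without other-lineage markers gave 660 calls in WT and 429 for KO over WT in members. Cells without a Ccr7 or Lef1 UMI gave 520 for KO over WT in members. These last 2 selections were chosen after seeing the data. The mean of CPM per cell gave 2985 calls in KO, 3315 in WT and 1907 for KO over WT in members. Leaving out the top cell of each gene gave 634 higher and 108 lower for KO over WT in members.

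Called values that changed sign follow, and the cause was not tested. Values that were not called, and lists with few calls, also changed sign, among them the guanylate-binding list for KO over WT in members, whose median was 0.20 and ran between -0.29 and 0.36. For members over interferon-zero cells, the other-gene gate gave 0.20 for the proliferation list, 0.25 for Stmn1 and 0.37 for Top2a in KO, and 0.0103 for Foxp3 in WT. The 4000 to 10000 UMI window gave 0.22 for the proliferation list, -0.15 for Gzma, 0.18 for Pdcd1, 0.12 for Stmn1, 0.44 for Top2a and 0.31 for Cdk1 in KO, and 0.0032 for the list and 0.45 for Cdk1 in WT. CD8 cells alone gave 0.43 for the gamma-delta list in KO and 0.53 in WT, and that selection leaves out cells with Trdc alone. For KO over WT in members, asking for 3 gate UMIs gave -0.10 for Cxcl2 and -0.31 for Arg1. The gate per 10000 UMIs gave -0.042 for Ifng, 1.36 for Bcl2a1a, 1.27 for Marcksl1 and 0.36 for Tubb2a. The other-gene gate gave -0.0399 for Iigp1, -0.20 for Ramp3 and 1.43 for Tubb2a. The UMI window gave -1.16 for Cxcl2 and 1.09 for Marcksl1. Cells with Cd79a and Lyz2 at 0 gave -0.10 for Ifng, and cells without other-lineage markers -0.20 for Ifng and 1.09 for Bcl2a1a. Cells without Ccr7 or Lef1 gave -1.37 for Cxcl2, 0.36 for Marcksl1 and 0.42 for Tubb2a. CD8 cells alone gave -0.0901 for Cxcl10 and -0.11 for Oas1a. Isg15 stayed between 3.64 and 4.75 in KO for members over interferon-zero cells. Ctse stayed between -2.67 and -1.60, Gbp2b between 2.00 and 4.14 and Dapl1 between -2.54 and -1.16 for KO over WT.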

Other observations

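The Isg15 level of members, by lineage class, is given with the depth of the cells. Isg15 was at 474 CPM in KO members with CD8 only, 687 with Cd4 only, 501 with Trdc only, 430 with more than 1 lineage and 815 with no lineage UMI. In WT members it was at 673, 674, 218, 412 and 685 CPM in the same classes, the Trdc class holding 5 cells. Median depth in KO was 6906 UMIs per cell with CD8 only, 5329 with Cd4 only, 11239 with more than 1 lineage and 4734 with none, and the part of depth in these levels was not tested. Among members the Cd4 class stood above the CD8 class in KO, whereas in WT they were nearly level. In both libraries interferon-zero cells with Cd4 only held more Isg15 than those with CD8 only. Levels were 39.7 against 18.9 CPM in KO and 40.4 against 21.0 in WT.

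Lists of other T-cell traits moved less evenly. Of 16 genes of the early response to the T-cell receptor, 6 were higher and 1 lower in KO members than in KO interferon-zero cells, median 0.40, and 1 and 2 in WT, median -0.07. In the comparison of KO with WT members 6 of 16 were higher, median 0.43, and 2 in interferon-zero cells, median -0.02. Of Treg identity genes 4 of 13 were higher in KO than in WT members, median 0.55, and 1 of 14 was higher and 1 lower in interferon-zero cells, median 0.33. The gene called lower was Foxp3, the factor that defines these cells, with log2 ratios of -2.07 in interferon-zero cells and -0.77, not called, in members. Of 12 genes of gamma-delta and innate-like T cells 3 were lower in members than in interferon-zero cells in each library, with medians of -0.67 in KO and -0.46 in WT. Of chemokine receptors 3 of 12 were higher and 1 lower in KO members than in interferon-zero cells, and 0 of 11 were called in WT.

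Some genes had many of their UMIs in a single member, and these were picked after their values were seen. One KO member of 5750 UMIs held all 17 Ifnb1 UMIs found in members, beside 7 gate UMIs and 7 CD3 UMIs. One KO member of 13442 UMIs held 2253 Igkc UMIs. Ifng was called higher in KO than in WT members (log2 0.85) and also among interferon-zero cells (0.70). In KO members, 1 cell of 28328 UMIs held 227 Ifng UMIs, 38.7% of those of KO members.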
